A study of Sus scrofa with 9 samples.

Results

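The genes of the proteasome, the protease complex that degrades most ubiquitin-tagged protein in muscle, were described in pigs fed different amounts of lysine. Members were all genes whose symbol marked a proteasome subunit or regulator (PSMA, PSMB, PSMC, PSMD, PSME, PSMF or PSMG and a number), and 36 of the 12361 named genes on the array met this rule, through 38 probe sets. 1 of the 36, PSMC3IP, is a meiotic recombination factor that only carries a proteasome symbol. It read 4.03 to 4.17 in the 9 pigs and was kept apart, which left 35 proteasome genes: 12 of the core particle (PSMA and PSMB), 20 of the regulatory particles (PSMC, PSMD and PSME) and 3 others, the inhibitor PSMF1 and the assembly chaperones PSMG3 and PSMG4. A further 13 pig genes with such symbols had no probe set of their own and were not analysed here, among them the immune catalytic subunits PSMB8 and PSMB10 and the ubiquitin receptors PSMD2 and PSMD4.

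Transcript levels were measured in the longissimus dorsi, the long back muscle, of 9 male finishing pigs that weighed about 95 kg at the start. For 5 weeks the pigs received a lysine-deficient diet (pigs 1, 2 and 3), a lysine-adequate diet (pigs 5, 6 and 7) or a lysine-excess diet (pigs 9, 10 and 11), and the muscle was taken between ribs 10 and 12. Each pig gave 1 array, so a group is 3 separate animals. The study addressed how dietary lysine, an indispensable amino acid in pig feed, affects gene expression in muscle. All levels are values that the authors had already processed, on a scale taken as log2, on which a difference of 1 is a doubling, and all differences are differences of these log2 values.

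The proteasome consists of a barrel-shaped core particle and caps that control access to it. The outer rings of the barrel are built from alpha subunits (PSMA) and form the gate, and the inner rings are built from beta subunits (PSMB), of which PSMB5, PSMB6 and PSMB7 cut peptide bonds. The main cap, the regulatory particle, has a ring of ATPases (PSMC) that unfold the substrate and a set of non-ATPase subunits (PSMD) that bind it, cut off its ubiquitin chain and join base to lid. Other caps are the activators PSME1 to PSME4, and dedicated chaperones assemble the parts. In skeletal muscle the ubiquitin-proteasome system is known as a main route of myofibrillar protein breakdown, and its transcripts are known to increase in many forms of muscle wasting.

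The arrays differed in ways that touch every result with the excess diet. The array of excess pig 11 correlated with the other 8 at r = 0.90 to 0.96 over all probe sets, against 0.98 to 0.99 among those 8. The 4210 probe sets with a mean level of at least 8, a limit set after the values were seen, lay 0.37 below the adequate mean in this pig by their median, while the median over all probe sets was −0.02. Differences from the excess diet are therefore given with and without pig 11, and what set its array apart was not tested. The values without it rest on pigs 9 and 10. Array quality weights, lower for arrays that fit their group less well, were 0.68, 0.19 and 0.22 for excess pigs 9, 10 and 11. In the other groups they ran from 0.90 (deficient pig 3) to 2.46 (adequate pig 6). The muscle markers ACTA1 and NEB were high in all groups (ACTA1 means 12.57, 12.59 and 12.72, NEB means 13.35, 13.35 and 13.36 in deficient, adequate and excess pigs). Such bulk measurements cannot tell fewer cells of a type apart from less RNA per cell.

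None of the 35 proteasome genes passed an adjusted p of 0.05 in limma's moderated test for any pair of diets, with p-values adjusted for the 27558 probe sets tested (Benjamini-Hochberg). The smallest adjusted p among them was 1.00 for deficient against adequate, 0.757 for excess against adequate, 0.872 for deficient against excess and 0.933 for any difference among the diets. No probe set on the array passed this threshold either (0%), the smallest adjusted p being 0.145, 0.757, 0.117 and 0.160 in the same order. At an unadjusted p of 0.05 in the same test the counts of proteasome genes were 0, 0 and 3 for the 3 pairs of diets. The shares of all probe sets were 1.85%, 3.56% and 4.08%. The median SE of a member's log2 difference was 0.14. What follows describes measured differences that did not reach the adjusted threshold.

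**Figure D1:**
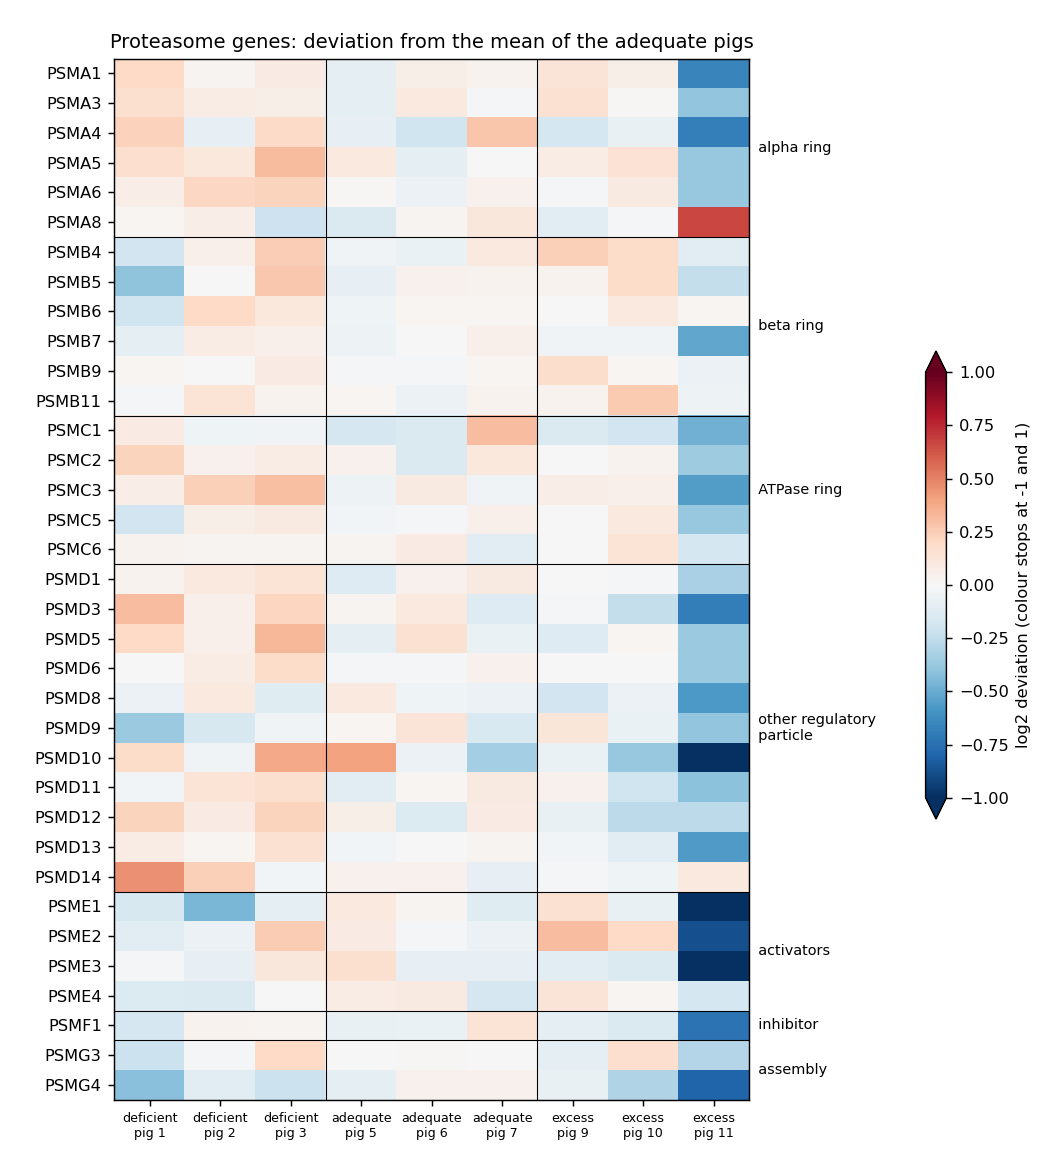
Log2 level of each proteasome gene (rows, ordered by role) in each of the 9 pigs (columns, by diet) as the deviation from the mean of the 3 adequate pigs, with colours that stop at 1 log2 unit in either direction. The column of excess pig 11 is below the adequate mean for 32 of 35 genes, and the other 8 columns are mixed.

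Of the alpha subunits, which form the gate of the barrel, 5 of 6 had a higher mean in deficient than in adequate pigs, and none reached an unadjusted p of 0.05. PSMA6 read 10.19, 10.34 and 10.35 in the deficient pigs, 10.14, 10.07 and 10.17 in the adequate pigs and 10.11, 10.21 and 9.75 in the excess pigs. All deficient values lay above all adequate values, by 0.17 ± 0.12 (SE) between the means, with an unadjusted p of 0.204 in limma's test. PSMA5 read 8.70, 8.64 and 8.84 on the deficient diet, 8.63, 8.43 and 8.53 on the adequate diet and 8.60, 8.67 and 8.15 on the excess diet. It too had no overlap between deficient and adequate pigs, with a difference of 0.20 ± 0.14 (unadjusted p = 0.200).

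PSMA1, PSMA3 and PSMA4, the other alpha subunits of the ordinary barrel, differed by 0.10, 0.10 and 0.11 in the same comparison, and their groups overlapped. PSMA4 had the widest gap between deficient and excess pigs in this ring, 0.43 (unadjusted p = 0.0576), with 10.60, 10.29 and 10.56 against 10.19, 10.29 and 9.69. Deficient pig 2 and excess pig 10 met at 10.29, and the gap was 0.24 without pig 11. PSMA8, the testis form of an alpha subunit, went the other way: its 8 lower values ran from 3.97 to 4.29, and excess pig 11 read 4.84. It was dim, with a mean under the array-wide median of 5.06, and its difference between excess and adequate pigs, 0.18 ± 0.20 (unadjusted p = 0.389), was −0.06 without pig 11.

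The beta subunits, which hold the active sites, differed little between the diets. PSMB6, which cuts after acidic residues, read 11.12, 11.51 and 11.42 on the deficient diet, 11.27, 11.34 and 11.34 on the adequate diet and 11.32, 11.41 and 11.34 on the excess diet. The deficient pigs held both the lowest and the highest of the 9 values, and the differences from adequate were 0.04 ± 0.10 and 0.04 (0.05 on the excess diet without pig 11). PSMB5, the chymotrypsin-like subunit, read 8.32, 8.73 and 9.00 in deficient, 8.64, 8.77 and 8.76 in adequate and 8.76, 8.91 and 8.49 in excess pigs. Here again the extremes were both deficient pigs, and the difference from adequate was −0.04 ± 0.18.

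PSMB7, the trypsin-like subunit, read 9.09 to 9.26 in the 8 other pigs and 8.66 in excess pig 11. Its difference was 0.01 between deficient and adequate pigs and −0.20 between excess and adequate pigs, or −0.03 without pig 11. PSMB4, a structural beta subunit, read 10.89, 11.14 and 11.33 on the deficient diet, 11.05, 11.02 and 11.18 on the adequate diet and 11.32, 11.27 and 10.97 on the excess diet. It overlapped in all comparisons, with 0.10 between excess and adequate (unadjusted p = 0.478) and −0.07 between deficient and excess (unadjusted p = 0.644). Without pig 11 these were 0.21 and −0.17.

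PSMB9, the interferon-inducible subunit of the immunoproteasome, was dim, at 4.64 to 4.88 on its brighter probe set. Its differences were 0.04 ± 0.07 for deficient against adequate and 0.05 for excess against adequate (0.10 without pig 11). The second PSMB9 probe set read 4.43 to 5.21 and gave −0.10 ± 0.20 and 0.17, so the probe sets disagreed in sign on the deficient diet. Without pig 11 the second one lay 0.36 above adequate on the excess diet, and deficient against excess it was −0.46 (unadjusted p = 0.0308), where the brighter one gave −0.07. PSMB11, the beta subunit known from the thymic cortex, read 5.31 to 5.62 in all pigs. In the pig gene table PSMB11 and PSMB5 are neighbouring protein-coding genes. The PSMB11 difference between excess and adequate pigs was 0.08 ± 0.09 (unadjusted p = 0.398), and 0.15 without pig 11.

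The ATPases, which unfold substrates and open the gate, differed by −0.02 to 0.20 between deficient and adequate pigs. PSMC3 read 7.24, 7.41 and 7.47 on the deficient diet, 7.12, 7.26 and 7.14 on the adequate diet and 7.24, 7.22 and 6.62 on the excess diet. The deficient pigs overlapped the adequate ones only through pig 1, and the difference was 0.20 ± 0.17. Against excess it was 0.35 (unadjusted p = 0.0712), and 0.14 without pig 11. PSMC1 read 9.94, 9.82 and 9.82 in deficient pigs and 9.71, 9.67 and 9.38 in excess pigs, without overlap, a difference of 0.27 (unadjusted p = 0.101) that was 0.17 without pig 11. Its adequate values of 9.69, 9.71 and 10.17 spanned both groups. PSMC2, PSMC5 and PSMC6 differed from adequate by 0.11, −0.02 and 0.03 on the deficient diet and by −0.11, −0.10 and −0.01 on the excess diet, where the values without pig 11 were 0.02, 0.05 and 0.07.

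The largest differences by test statistic lay among the non-ATPase subunits (PSMD). PSMD12, a scaffold subunit of the lid, read 11.22, 11.08 and 11.21 in deficient pigs, 11.05, 10.86 and 11.07 in adequate pigs and 10.92, 10.74 and 10.73 in excess pigs. Every deficient pig lay above every adequate and every excess pig, and adequate and excess pigs overlapped. The means were 11.17 ± 0.08, 10.99 ± 0.12 and 10.80 ± 0.11 (SD, 3 pigs each). The differences were 0.18 ± 0.09 for deficient against adequate (1.13-fold, unadjusted p = 0.0867) and −0.20 for excess against adequate (1.15-fold, unadjusted p = 0.0594). For deficient against excess the difference was 0.37, or 1.30-fold, with an unadjusted p of 0.0034 and an adjusted p of 0.872 in limma's test. Without pig 11 the excess differences were −0.17 from adequate and 0.34 from deficient. Over all the alternative settings the latter ran from 0.30 to 0.44 and its adjusted p from 0.282 to 1.

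PSMD3, another lid subunit, had means of 8.90 ± 0.13, 8.71 ± 0.12 and 8.39 ± 0.34 (SD) on the deficient, adequate and excess diets. Its values were 9.02, 8.76 and 8.92, then 8.74, 8.81 and 8.58, then 8.69, 8.48 and 8.02. Deficient pigs lay above excess pigs without overlap, by 0.51 (1.42-fold, unadjusted p = 0.0170) or by 0.32 without pig 11, while adequate pigs overlapped both. PSMD5, a chaperone of base assembly, had means of 8.74 ± 0.14, 8.55 ± 0.13 and 8.39 ± 0.20 (SD). Its values were 8.75, 8.60 and 8.88 on the deficient diet, 8.46, 8.70 and 8.49 on the adequate diet and 8.42, 8.57 and 8.18 on the excess diet. The lowest deficient pig, at 8.60, lay just above the highest excess pig, at 8.57, and the means differed by 0.35 (1.28-fold, unadjusted p = 0.0233), or by 0.25 without pig 11.

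**Figure D2:**
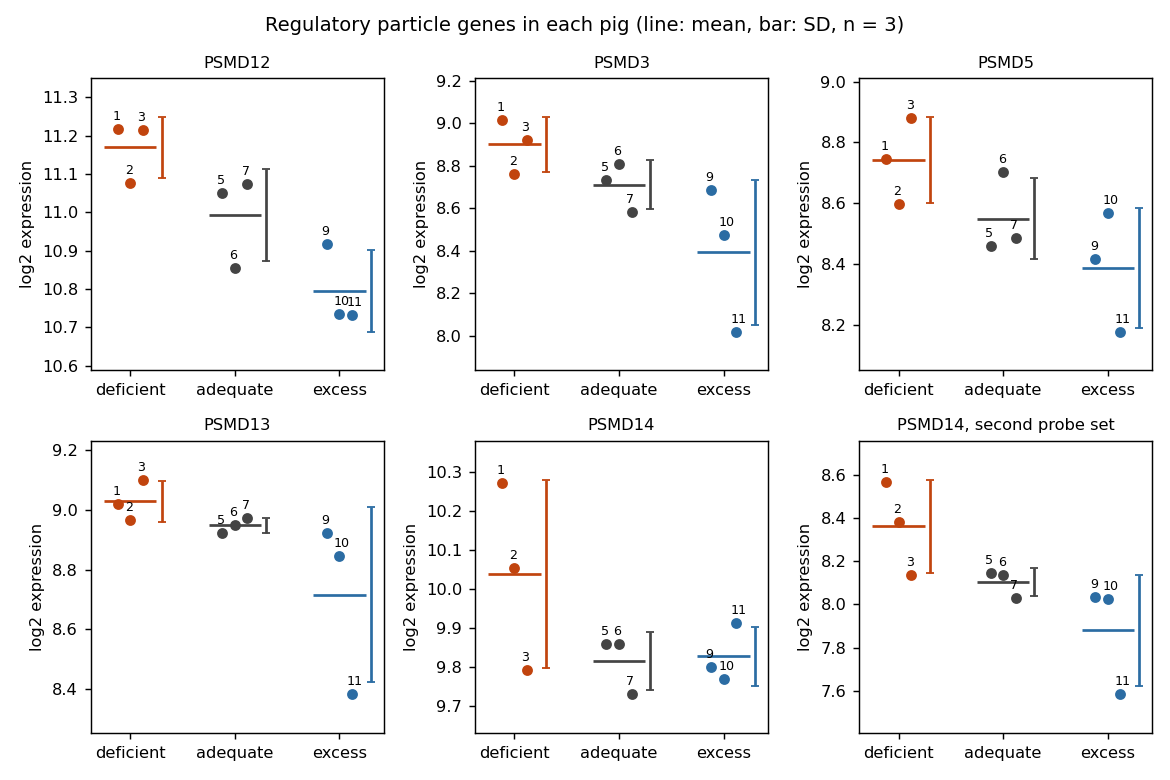
Log2 level of PSMD12, PSMD3, PSMD5, PSMD13 and PSMD14 and of the second PSMD14 probe set in each pig (points, by diet), with the mean and SD of the 3 pigs of each diet. PSMD12 is highest in the deficient pigs without overlap, and excess pig 11 is the lowest point for PSMD3, PSMD5 and PSMD13 but not for the brighter PSMD14 probe set.

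PSMD13, a lid subunit, had means of 9.03 ± 0.07, 8.95 ± 0.03 and 8.72 ± 0.29 (SD). Its values were 9.02, 8.97 and 9.10 on the deficient diet, 8.92, 8.95 and 8.97 on the adequate diet and 8.92, 8.84 and 8.38 on the excess diet. Deficient and excess pigs did not overlap and differed by 0.31 (unadjusted p = 0.0504), and by 0.15 without pig 11. PSMD14, the deubiquitinase that removes the ubiquitin chain from substrates, read 10.27, 10.05 and 9.79 in deficient pigs, 9.86, 9.86 and 9.73 in adequate pigs and 9.80, 9.77 and 9.91 in excess pigs. Deficient pigs 1 and 2 were the highest of the 9, pig 3 lay within the other groups, and the difference from adequate was 0.22 ± 0.12 (unadjusted p = 0.102).

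A second PSMD14 probe set gave 8.57, 8.38 and 8.14 on the deficient diet, 8.15, 8.14 and 8.03 on the adequate diet and 8.03, 8.02 and 7.58 on the excess diet. It had the same order of the deficient pigs, with 0.26 ± 0.15 against adequate (unadjusted p = 0.127). The probe sets parted on the excess diet: the difference from adequate was 0.01 on the brighter one and −0.22 (unadjusted p = 0.178) on the other. Deficient pigs lay above excess pigs by 0.21 (unadjusted p = 0.119) on the brighter one and by 0.48 (unadjusted p = 0.0134) on the other. Without pig 11 the excess diet differed from adequate by −0.03 and −0.08, and deficient from excess by 0.25 and 0.33.

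PSMD10, also called gankyrin and a chaperone of base assembly, varied most of all 35 genes. It read 7.86, 7.64 and 8.05 on the deficient diet, 8.07, 7.62 and 7.33 on the adequate diet and 7.61, 7.30 and 6.16 on the excess diet. Deficient pigs lay above excess pigs without overlap by 0.82 (unadjusted p = 0.0559), and by 0.40 without pig 11 (unadjusted p = 0.132). The residual SD among pigs of 1 diet was 0.503, against a median of 0.176 over the proteasome genes. PSMD9, the remaining base chaperone, was lower in deficient than in adequate pigs, at 5.39, 5.60 and 5.72 against 5.78, 5.88 and 5.60. Those groups overlapped, and the difference was −0.19 ± 0.15 (unadjusted p = 0.253). Its difference between deficient and excess pigs was −0.07 (unadjusted p = 0.648), and −0.21 without pig 11.

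The other PSMD genes are subunits of the lid (PSMD6, PSMD8, PSMD11) and the large scaffold of the base (PSMD1). PSMD11 read 10.34, 10.51 and 10.53 on the deficient diet against 10.41, 10.17 and 9.96 on the excess diet, overlapping through deficient pig 1, with a difference of 0.28 (unadjusted p = 0.0521), or 0.17 without pig 11. PSMD8 read 9.60, 9.74 and 9.22 on the excess diet against 9.89, 9.75 and 9.74 on the adequate diet. The highest excess pig equalled the lowest adequate pig to 2 decimals, and the difference was −0.27 (unadjusted p = 0.0796), or −0.12 without pig 11. PSMD1 and PSMD6 each differed by 0.09 ± 0.11 between deficient and adequate pigs, and by −0.11 and −0.12 between excess and adequate pigs, which became −0.0049 and 0.0073 without pig 11.

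The activators PSME1 and PSME2, the interferon-inducible subunits of an alternative cap, varied more between pigs than between diets. PSME1 read 8.13, 7.83 and 8.20 on the deficient diet, 8.39, 8.31 and 8.16 on the adequate diet and 8.44, 8.21 and 7.17 on the excess diet. Excess pigs held its highest and its lowest value, and the differences from adequate were −0.23 ± 0.30 on the deficient diet (unadjusted p = 0.459) and −0.35 on the excess diet. PSME2 read 8.24, 8.29 and 8.60, then 8.43, 8.33 and 8.29, then 8.65, 8.55 and 7.47, and differed by 0.03 ± 0.29 and −0.12. Without pig 11 the differences from adequate on the excess diet were 0.04 for PSME1 and 0.25 for PSME2.

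PSME3, the nuclear activator, read 9.19, 9.13 and 9.32 on the deficient diet, 9.36, 9.13 and 9.13 on the adequate diet and 9.10, 9.06 and 8.07 on the excess diet. All excess pigs lay below all adequate pigs, though the nearest pigs were close, and the difference of the means was −0.46 (unadjusted p = 0.113). Without pig 11 it was −0.12 (unadjusted p = 0.244). PSME4, a nuclear activator that acts on histones, read 10.85 to 11.16 across the 9 pigs. Its differences from adequate were −0.09 ± 0.11 on the deficient diet (unadjusted p = 0.408) and −0.01 on the excess diet (0.07 without pig 11).

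PSMF1, which inhibits the core particle in vitro, read 8.63, 8.84 and 8.83 on the deficient diet, 8.73, 8.73 and 8.94 on the adequate diet and 8.71, 8.65 and 8.06 on the excess diet. The excess pigs lay below the adequate pigs without overlap, by −0.32 between the means (unadjusted p = 0.0999), or −0.12 without pig 11 (unadjusted p = 0.274), and the deficient pigs were mixed with the adequate ones, at −0.03 ± 0.17. PSMG4, a chaperone of core assembly, read 5.85, 6.16 and 6.05 on the deficient diet, 6.18, 6.32 and 6.32 on the adequate diet and 6.19, 5.97 and 5.47 on the excess diet. Its deficient pigs lay below its adequate pigs without overlap, by −0.25 ± 0.18 (unadjusted p = 0.202). The excess pigs lay lower too, at −0.39 (unadjusted p = 0.0594), overlapping only through pig 9, and at −0.19 without pig 11 (unadjusted p = 0.144). PSMG3, its partner, was dim and differed by −0.01 and −0.07 (0.04 on the excess diet without pig 11).

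Deficient against adequate pigs, 25 of the 35 genes were higher and 10 lower, and the median difference was 0.04. Over all probe sets 52.9% were higher with a median of 0.01, and over probe sets with a mean of at least 8 the share was 46.7%. No proteasome gene reached an unadjusted p of 0.05, against 1.85% of all probe sets. The pigs did not overlap for 3 higher genes, PSMA5, PSMA6 and PSMD12 (3.77% of all probe sets), and for 1 lower gene, PSMG4 (3.07%). The higher genes were spread over the alpha ring (5 of 6), the beta ring (5 of 6), the ATPases (4 of 5) and the PSMD genes (9 of 11). Of the activators 2 of 4 were higher. The chaperones of core assembly, PSMG4 and PSMG3, were lower, at −0.25 and −0.01. Among the base chaperones PSMD5 and PSMD10 were higher, at 0.19 and 0.17, and PSMD9 was lower, at −0.19.

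Excess pig 11 is not part of this contrast, but it sets the estimated spread. When its array was left out of the fit, the differences stayed as they were and 4 genes had an unadjusted p under 0.05, against 3.54% of all probe sets. These were PSMA5, PSMA6 and PSMC3, higher with unadjusted p-values of 0.042, 0.041 and 0.035, and PSMG4, lower with 0.048. When deficient pig 3 was left out, 1 gene did, against 2.88% of all probe sets. None passed the adjusted threshold in either fit.

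Excess against adequate pigs, 6 genes were higher and 29 lower, and the median difference was −0.12. Negative differences made up 49.8% of all probe sets but 82.7% of those with a mean of at least 8, whose median was −0.14. No proteasome gene reached an unadjusted p of 0.05, against 3.56% of all probe sets, and only PSME3 and PSMF1 were lower without overlap, against 3.84% of all probe sets and 7.81% of those with a mean of at least 8. Of the regulatory genes 19 of 20 were lower, PSMD14 being the exception, and their median difference was −0.15. Of the core genes 7 of 12 were lower, their median was −0.03, and 4 of 6 beta subunits were higher. Among members with a mean of at least 8, 7 of 9 core genes were lower with a median of −0.08, and 16 of 17 regulatory genes with a median of −0.16.

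Much of this pattern rested on excess pig 11. Of the 35 genes 29 had their lowest value of the 9 pigs in it (82.9%), as did 31.6% of all probe sets and 67.6% of those with a mean of at least 8. Without it, 19 proteasome genes were higher and 16 lower, and the median was 0.02. In limma's test 0 reached an unadjusted p of 0.05, against 2.44% of all probe sets. The PSMD genes were still lower in 9 of 11 cases (median −0.07), and 9 of 12 core genes were higher (median 0.09). Negative differences made up 48.8% of all probe sets in that fit and 54.1% of those with a mean of at least 8. The fit without excess pig 9, which leaves pigs 10 and 11 in the group, gave 8 genes with an unadjusted p under 0.05, against 16.8% of all probe sets. Without adequate pig 6 or excess pig 10 the count was 1, against 2.14% and 3.78% of all probe sets.

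**Figure D3:**
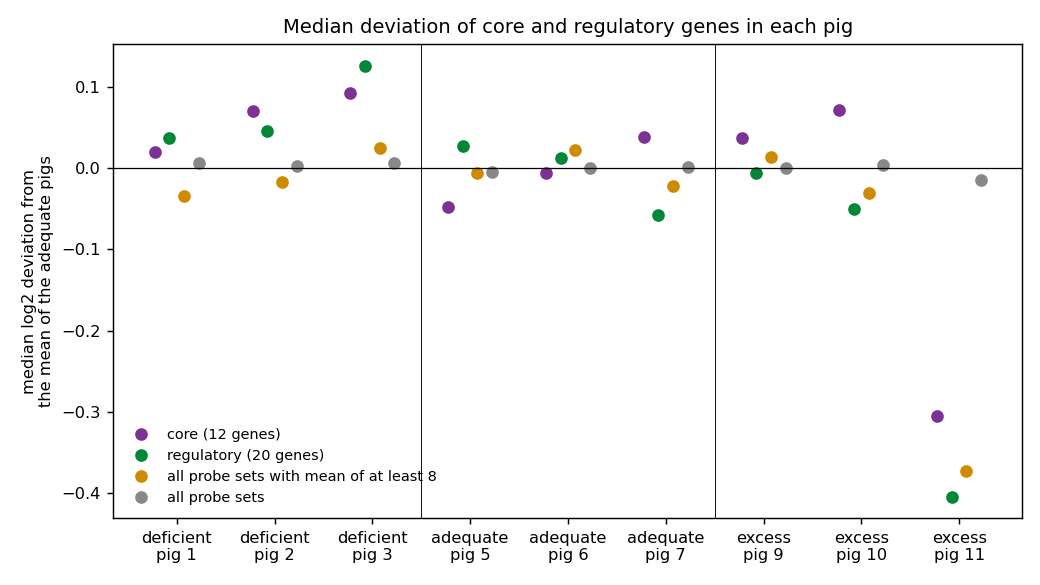
Median log2 deviation from the adequate mean in each of the 9 pigs for the 12 core genes, the 20 regulatory genes, all probe sets with a mean of at least 8 and all probe sets. Core and regulatory medians lie within 0.13 of 0 in 8 pigs and at −0.31 and −0.40 in excess pig 11, where the bright probe sets lie at −0.37 and all probe sets at −0.02. Over members with a mean of at least 8 the core and regulatory medians in pig 11 are both −0.38.

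The classes read as follows in pig 11. Its median deviation from the adequate mean was −0.39 over the alpha subunits, −0.09 over the beta subunits, −0.38 over the ATPases, −0.40 over the PSMD genes and −0.996 over the 4 activators. The beta subunits PSMB4, PSMB5 and PSMB6 had their lowest value in deficient pig 1 instead. Of the regulatory genes 19 of 20 were lowest in pig 11, and PSMD14 was lowest in adequate pig 7. Restricted to members with a mean of at least 8, the core median was −0.378 and the regulatory median −0.380 in this pig, so the gap between −0.31 and −0.40 over all members was not seen there. These values describe 1 array and have no replicate.

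Averaged over pigs, the median deviation of the core genes was 0.06 ± 0.04 on the deficient, −0.01 ± 0.04 on the adequate and −0.07 ± 0.21 on the excess diet (SD, 3 pigs each). That of the regulatory genes was 0.07 ± 0.05, −0.01 ± 0.05 and −0.15 ± 0.22. Within a pig, the regulatory median minus the core median was 0.01 ± 0.03 on the deficient, −0.0006 ± 0.09 on the adequate and −0.09 ± 0.04 on the excess diet. It was negative in all 3 excess pigs, but adequate pig 7 lay within their range at −0.10. Within the deficient group pig 3 had the highest medians, 0.09 and 0.13, and it was the highest of the 9 pigs for 11 of 35 genes, against 13.7% of all probe sets.

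Deficient against excess pigs, 27 genes were higher and 8 lower, and the median difference was 0.21. Higher values made up 50.0% of all probe sets and 74.9% of those with a mean of at least 8, whose median was 0.12. An unadjusted p under 0.05 was reached by 3 genes, PSMD12, PSMD3 and PSMD5, all higher, against 2.84% of all probe sets and 8.53% of those with a mean of at least 8. At 3 of 35, or 8.57%, the members' share was close to that of the bright probe sets. An F test over all diets gave an unadjusted p of 0.0106 for PSMD12, 0.0465 for PSMD3 and 0.0647 for PSMD5, and 2.54% of all probe sets lay under 0.05.

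The pigs did not overlap for 9 genes, all higher in deficient pigs, against 4.28% of all probe sets and 11.8% of those with a mean of at least 8. These were PSMC1, PSMC2, PSMD1, PSMD3, PSMD5, PSMD10, PSMD12, PSMD13 and PSME3, which are 9 of the 20 regulatory genes and 0 of the 12 core genes. By direction, 10 of 11 PSMD genes (median 0.28), 5 of 5 ATPases (0.22), 3 of 4 activators (0.13) and 5 of 6 alpha subunits (0.26) were higher. Of the beta subunits 1 of 6 was higher (−0.02). The difference between regulatory and core genes was not tested, because the genes of a pig are not replicates.

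**Figure D4:**
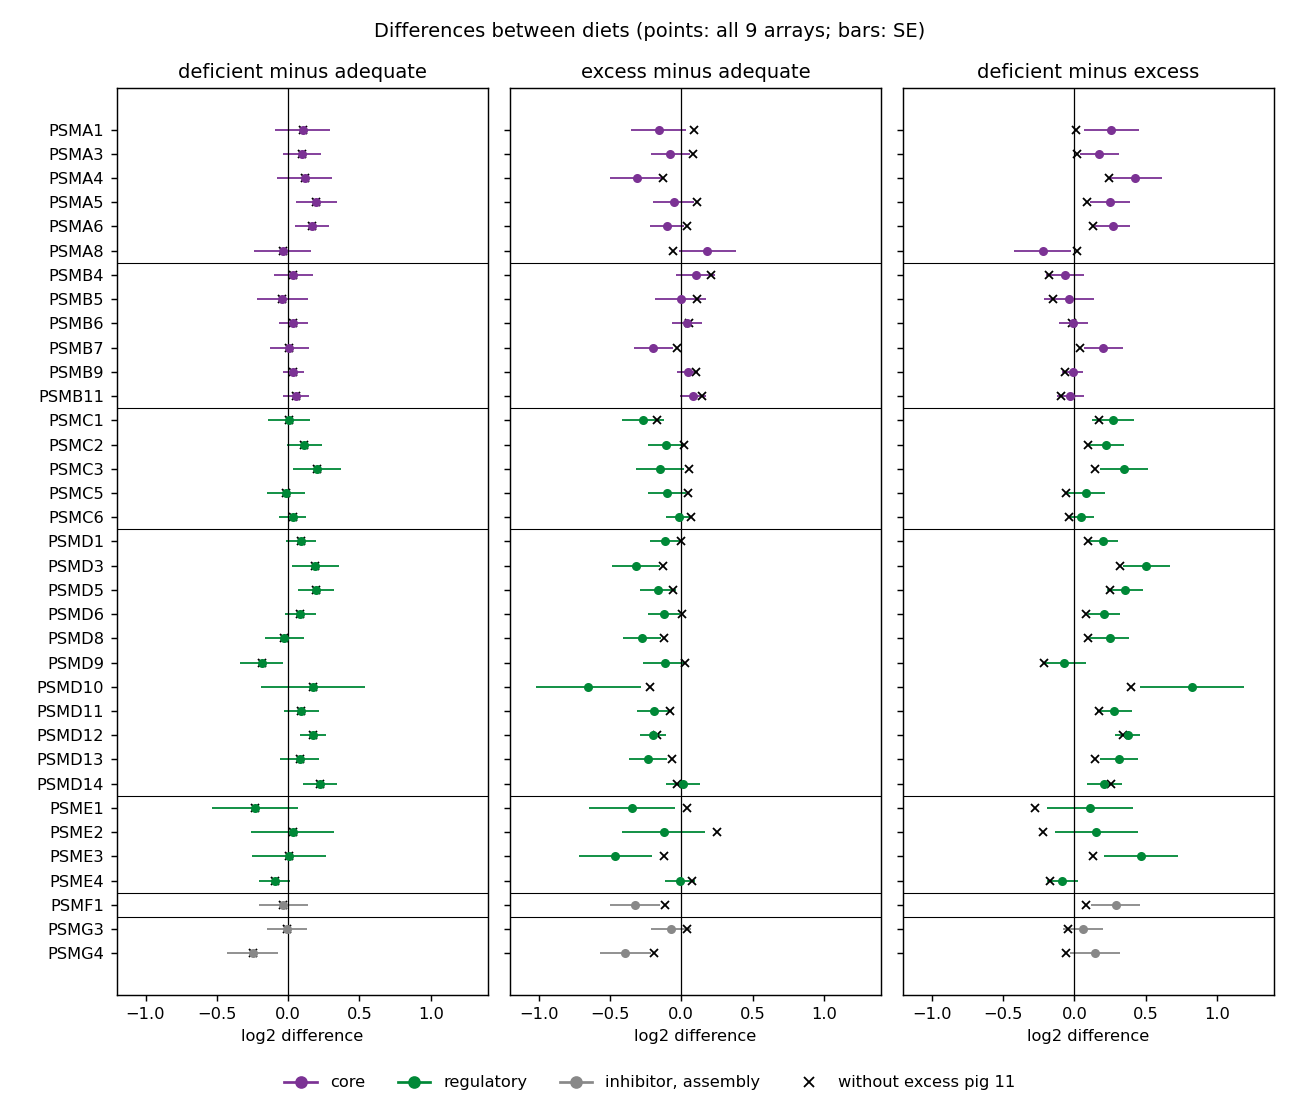
Log2 difference ± SE of each proteasome gene (rows, by role) in the 3 comparisons of diets, with crosses for the value without excess pig 11. The deficient-against-excess points of the PSMD genes lie above 0 for 10 of 11 genes, and the crosses lie nearer to 0 for most of them.

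Without excess pig 11 the deficient pigs were higher for 22 genes and lower for 13, and the median was 0.08. Higher values made up 50.8% of all probe sets in that fit and 49.1% of those with a mean of at least 8. The PSMD genes were still higher in 10 of 11 cases, with a median of 0.17. Core genes were higher in 7 of 12, with a median of 0.01. Of the ATPases 3 of 5 were higher (median 0.10), but of the activators only 1 of 4 (−0.19). Without overlap, 9 regulatory genes were then higher in deficient pigs and 2, both activators, were lower, against 0 core genes in either direction. The shares of all probe sets were 7.13% and 6.46%, and 12.3% and 10.8% of those with a mean of at least 8. PSMD12 and PSMD3 kept an unadjusted p under 0.05, with 0.34 ± 0.10 (unadjusted p = 0.010) and 0.32 ± 0.11 (unadjusted p = 0.026), and PSMD5 had 0.25 ± 0.11 (unadjusted p = 0.067). Among all probe sets 2.09% were higher at that level in this fit, and 5.23% of those with a mean of at least 8. The count of proteasome genes was 8 without excess pig 9 and 8 without excess pig 10, against 14.4% and 4.55% of all probe sets, and 5 without adequate pig 7, against 3.30%. All 3 comparisons share groups with each other, so their directions are not independent.

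The proteasome's partners outside the symbol rule were described by lists of known function, and none of their genes passed the adjusted threshold. Of 12 proteasome-bound factors 8 were measured. All 8 were higher in deficient than in excess pigs, as were 74.9% of the probe sets with a mean of at least 8. An unadjusted p under 0.05 was reached by 3 of them, beside 2.84% of all probe sets and 8.53% of the bright ones. Without pig 11, 5 of 8 were higher, beside 49.1% of the bright probe sets. In that fit 2 were under 0.05, beside 2.09% of all and 5.23% of the bright probe sets. TXNL1, a thioredoxin-like protein bound to PSMD14, had means of 11.43 ± 0.03, 11.26 ± 0.04 and 11.12 ± 0.12 (SD) on the deficient, adequate and excess diets. None of its groups overlapped, and deficient pigs lay above adequate pigs by 0.17 ± 0.07 (unadjusted p = 0.0471) and above excess pigs by 0.31 (unadjusted p = 0.0031), or by 0.24 without pig 11. AKIRIN2, which brings proteasomes into the nucleus, differed by 0.19 ± 0.07 between deficient and excess pigs (unadjusted p = 0.0301), and ZFAND2A, a stress-induced regulator of the cap, by 0.60 ± 0.26 (unadjusted p = 0.0497). Without pig 11 these were 0.21 (unadjusted p = 0.0295) and 0.67 (unadjusted p = 0.0628). UBE3C, a ligase that works on the proteasome, was lower in excess than in adequate pigs by −0.35 ± 0.15 (unadjusted p = 0.0476). The UBE3C difference was −0.18 without pig 11 (unadjusted p = 0.0928). An unadjusted p under 0.05 with a lower value was found for 2.21% of all probe sets and 4.16% of those with a mean of at least 8 in this comparison.

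Of 12 genes for the transcription of proteasome subunits 9 were measured, and 0 had an unadjusted p under 0.05 in limma's test of any comparison. NFE2L2, a stress-response factor that can drive proteasome genes, differed from adequate by 0.12 ± 0.16 on the deficient diet and 0.01 on the excess diet (0.04 without pig 11). Among ubiquitin and its activating enzymes 4 of 6 genes were measured, and UBB, a polyubiquitin gene, was lower in excess than in adequate pigs by −0.24 ± 0.10 (unadjusted p = 0.0398). The UBB difference was −0.18 without pig 11 (unadjusted p = 0.109). Of 19 ubiquitin-conjugating enzymes 12 were measured, all 12 lower in excess than in adequate pigs, as were 82.7% of the probe sets with a mean of at least 8. Without pig 11, 8 of 12 were.

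Against excess, 9 of these 12 conjugating enzymes were higher in deficient pigs, 4 with an unadjusted p under 0.05: UBE2B (0.39 ± 0.11, unadjusted p = 0.0073), UBE2D3 (0.28 ± 0.07, unadjusted p = 0.0038), UBE2K (0.20 ± 0.08, unadjusted p = 0.0396) and UBE2N (0.43 ± 0.12, unadjusted p = 0.0091). The shares of probe sets with a mean of at least 8 were 74.9% higher and 8.53% higher with an unadjusted p under 0.05. Without pig 11, 6 of 12 were higher, against 49.1% of those probe sets, and UBE2B, UBE2D3 and UBE2N stayed under 0.05, against 5.23%. UBE2K was 0.13 without it (unadjusted p = 0.0977). Of 14 muscle ubiquitin ligases 9 were measured, and of 13 genes for the segregase VCP and the shuttle factors 8 were measured. Neither list held a gene with an unadjusted p under 0.05 in any comparison. Of 16 interferon and antigen-processing genes 13 were measured. ERAP1, which trims peptides made by the proteasome, was lower in excess than in adequate pigs by −0.43 ± 0.14 (unadjusted p = 0.0152) and was the only gene of that list under 0.05 with all arrays. The ERAP1 difference was −0.37 without pig 11 (unadjusted p = 0.0471). Lower values with an unadjusted p under 0.05 made up 2.21% of all probe sets, and 1.26% without pig 11. Deficient against excess, ERAP1 was higher by 0.33 (unadjusted p = 0.0451), beside 2.84% of all probe sets, and by 0.27 without pig 11 (unadjusted p = 0.121).

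Markers of other cells in the muscle are given beside these results, as the log2 of each list's summed level. The 7 of 14 measured muscle fibre markers summed to 15.77 to 15.79 in deficient, 15.79 to 15.91 in adequate and 15.86 to 15.89 in excess pigs. Immune markers, which bear on PSMB9, PSME1 and PSME2, summed to 8.70 to 8.95, 8.77 to 9.03 and 8.65 to 9.09 over 13 of 21 genes, and 9 of the 13 had means under the overall median. The 9 of 10 measured fibroblast markers were all lower in deficient and in excess pigs than in adequate pigs, at 13.43 to 13.60, 13.67 to 14.01 and 13.22 to 13.59. Lower values made up 47% and 49.8% of all probe sets, and 53.3% and 82.7% of those with a mean of at least 8. In limma's test 1 marker was lower with an unadjusted p under 0.05 in each comparison, beside 1.01% and 2.21% of all probe sets. Without pig 11 all 9 stayed lower, beside 47% and 48.8%, and 3 and 1 were under 0.05, beside 1.91% and 1.26%. Adipocyte markers (7 of 10 measured) summed to 11.09 to 11.59, 11.14 to 11.56 and 10.81 to 11.31. Of the 7, all were higher in deficient than in adequate pigs, as were 52.9% of all probe sets. In limma's test 1 had an unadjusted p under 0.05 (CIDEC, unadjusted p = 0.0121), beside 0.842% of all probe sets. Excess against adequate, 6 were lower, beside 49.8%, and 3 of them were under 0.05 (CIDEC, LIPE and CFD), beside 2.21%. Without pig 11, 5 were lower, beside 48.8%, and only CFD stayed under 0.05 (unadjusted p = 0.0108), beside 1.26%. Deficient against excess, 6 were higher and 4 were under 0.05 (PLIN1, CIDEC, LIPE and CFD), also without pig 11, beside 2.84% of all probe sets with all arrays and 2.09% without it. Endothelial markers (7 of 8) summed to 9.92 to 10.24, 9.83 to 10.18 and 9.90 to 10.44. The part of these cells in the proteasome values was not tested.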

How the data were processed

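Muscle RNA was isolated with TRIzol, made into biotin-labelled sense-strand cDNA and hybridised to GeneChip arrays, per the labels' protocols. The values the authors deposited are taken as log2 from their range (3.10 to 14.3). The submitters' processing notes name GCOS 1.2 and Partek, and the normalization is not given in the sources used here. Symbols came from the platform annotation: 13323 of 27558 probe sets had 1 symbol, 357 several and 13878 none. Where a gene had 2 probe sets, the one with the higher mean was used.

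The deposited log2 values were fitted without further normalization with limma 3.58.1 in R 4.3.3 (lmFit, eBayes), with 1 mean per diet over all 9 arrays. Tests were two-sided and Benjamini-Hochberg adjusted over all probe sets, and the fit was tested on simulated data. SE comes from the fit, and SD is the spread among 3 pigs. The members and gene lists were chosen with earlier results of these data known. The genes named by rule were the 4 highest and 4 lowest members by test statistic in each comparison, the catalytic subunits, the activators, PSMF1 and PSMD14. Values of PSMA4, PSMA6, PSMC1, PSMC3, PSMD10 and PSMD11 in each pig are given outside that rule, with their results known. Alternatives were another normalization, array weights, a covariate, filters, other probe set rules and leaving out each pig. Sequences were not used here.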

Additional observations from a re-analysis of the deposited data

How the results depend on the processing

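No proteasome gene passed an adjusted p of 0.05 under any alternative, and the lowest was 0.267 (PSMG4, excess against adequate, without excess pig 9). Of 919 recomputed values of named genes 849 kept their direction and 70 turned sign, and the cause was not tested. No paired analysis was possible because the groups share no replicate numbers. Small differences, 3 pigs per diet and dim probe sets (PSMA8, PSMB9, PSMG3) limit the precision.

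In the alternatives below, counts run over all members tested, while turns of sign are listed only for the genes named by rule. Other members turned too and are not listed. The share of all probe sets under an unadjusted p of 0.05 was computed only for leaving out a pig. The counts under the other alternatives therefore have no array-wide share beside them. With quantile normalization the genes under an unadjusted p of 0.05 numbered 1 (deficient against adequate) and 5 (deficient against excess). In excess against adequate 13 genes were higher, and PSMB9, PSMB5, PSME2 and PSME4 turned to −0.0304, 0.113, 0.00918 and 0.0375. PSMB9 turned to 0.0428 in deficient against excess. With median centring PSME3 turned to −0.00132 (deficient against adequate). In excess against adequate 3 genes were higher, and PSMB9, PSMB6 and PSMD14 turned to −0.0110, −0.0155 and −0.0451. In deficient against excess PSMB6, PSMB9 and PSMB5 turned to 0.0447, 0.0397 and 0.0145. Fitting only the arrays compared gave 2 genes under 0.05 in deficient against adequate.

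With array quality weights 1 probe set, not a member, passed the adjusted threshold in deficient against adequate and 1 in the F test. In deficient against adequate 2 members were under 0.05, and PSME2 and PSME3 turned to −0.0165 and −0.0199. In excess against adequate 10 were higher, and PSMB5, PSME2, PSME4 and PSMD14 turned to 0.00417, 0.0490, 0.0386 and −0.00291. In deficient against excess 0 were under 0.05, and PSMB6, PSME1 and PSME2 turned to 0.0245, −0.147 and −0.0655. With each array's SD as a covariate 3, 1 and 5 members were under 0.05 (deficient against adequate, excess against adequate, deficient against excess), and PSMF1 turned to 0.00886 in deficient against adequate. In excess against adequate 18 were higher, and PSMA8, PSMB5, PSME1, PSME2, PSME4 and PSMD14 turned to −0.112, 0.155, 0.0998, 0.311, 0.123 and −0.0667. In deficient against excess PSMA8, PSME1 and PSME2 turned to 0.0135, −0.246 and −0.193. The mean over a gene's probe sets gave −0.0329 for PSMB9 (deficient against adequate) and −0.106 for PSMD14 (excess against adequate). Testing probe sets with 1 symbol alone put 1 probe set, not a member, past the adjusted threshold in deficient against excess. The limit of a mean of at least 8, added after seeing the data, left 27 members, 3 of them higher in excess against adequate.

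Leaving out each pig in turn, the count under 0.05 ran from 0 to 4, 0 to 8 and 2 to 8 in the same order of comparisons, and the count higher in excess against adequate from 5 to 19. The share of all probe sets under 0.05 ran from 1.33% to 3.54%, 2.12% to 16.8% and 3.04% to 14.4% in these fits. The shares of 16.8% and 14.4% came without excess pig 9, as did a count of 8 in both comparisons. Ranges were taken only for the genes named by rule in each comparison, so the lists that follow are not complete for the members. PSMA1, for example, was −0.158 in excess against adequate with all arrays and 0.0909 without pig 11. In deficient against adequate the ranges that crossed 0 were PSMB5 −0.198 to 0.139, PSMF1 −0.0690 to 0.0371, PSMB6 −0.0462 to 0.151, PSMB7 −0.0220 to 0.0629, PSME2 −0.0796 to 0.0990 and PSME3 −0.0495 to 0.0841. In excess against adequate they were PSME4 −0.0937 to 0.0744, PSMB5 −0.10 to 0.111, PSMD14 −0.0309 to 0.0408, PSMB9 −0.0198 to 0.10, PSMB11 −0.00699 to 0.149, PSMA8 −0.0603 to 0.329, PSME1 −0.596 to 0.0389 and PSME2 −0.339 to 0.252. In deficient against excess they were PSMB4 −0.174 to 0.0488, PSMD9 −0.213 to 0.0453, PSMB6 −0.0877 to 0.110, PSMB5 −0.193 to 0.144, PSMB9 −0.0650 to 0.0549, PSMA8 −0.368 to 0.0207, PSME1 −0.274 to 0.362 and PSME2 −0.221 to 0.370.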
